A study of Mus musculus with 64 samples.

Results

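The ageing of wild-type mouse liver was followed in 11 of the 64 libraries of the series, 5 from mice labelled 20 months and 6 from mice labelled 5 months. The libraries were taken by tissue, genotype and age alone, as the liver columns of wild-type (WT) mice, and no measured value entered the choice. The full series crosses these ages with 3 tissues (omental adipose tissue, liver and skeletal muscle) and with mice that lack Myc (KO), under a title that ties Myc inactivation to premature ageing. The WT mice are labelled C57/B6, and they were given the same agent as the KO mice, 5 daily injections of tamoxifen at 75 mg/kg in corn oil, begun at weaning in animals of at least 15 g. All WT libraries therefore come from tamoxifen-treated animals, 20 months old (old) or 5 months old (young). The KO mice, used below as a second set of ageing livers, came from a cross of B6.129 lines in which tamoxifen switches on Cre from ROSA26 and Cre excises Myc in the body's cells. Their strain label differs from that of the WT mice, so genotype and strain cannot be told apart. Libraries are named by the codes in the labels, such as W18L01, in which W stands for WT and L for liver. The codes of the old mice hold the number 18, whereas their age label gives 20 months.

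The liver makes bile acids, clears nitrogen through the urea cycle, stores and exports fat, and secretes most plasma proteins. These tasks are spread along the lobule, so that hepatocytes near the portal vein (periportal) and near the central vein (pericentral) express different enzymes. Growth hormone reaches hepatocytes in pulses, acts through the receptor-associated kinase JAK2 and the transcription factor STAT5, and sets much of the difference between male and female liver. With age, mouse liver is known for gains of lipid and of immune transcripts.

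Expression values are those of the deposited table, which its header calls CPM, and the test scale is log2(CPM + 1). The threshold for a call was an adjusted p of 0.05 (limma, Benjamini-Hochberg adjustment), and only called genes are said to rise or fall. The 11 libraries held 16.7 to 25 M reads on genes and 16080 to 17221 detected genes. Albumin (Alb) ranged from 77208 to 151488 CPM, so the tissue label fits the hepatocyte markers, whereas 14 skeletal muscle markers summed to at most 18 CPM and 17 pancreas markers to at most 32.9 CPM in any library. Of the 6 young libraries, W5L5041 and W5L5042 held reads of Xist (3142 and 1624), the transcript of the inactive X chromosome, and no reads of Y-linked genes. The other 4 young libraries and all 5 old libraries held Y-linked reads and at most 3 Xist reads, so sex by these transcripts is unevenly spread over the ages. Values without these 2 libraries are given beside the results that change most.

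Of 12422 genes tested, 915 (7.37%) differed between old and young WT liver. Among them 352 (2.83%) were higher and 563 (4.53%) lower in old liver. The median log2 fold change over all tested genes was -0.01. Values of old and young libraries did not overlap for 269 genes that were higher (2.17%) and 355 that were lower (2.86%) in old liver. Without the 2 Xist libraries 409 genes passed, 183 higher (1.47%) and 226 lower (1.82%), and 323 of the 915 genes were among them, while all 915 kept their sign. The count depended on single libraries over the 11 fits that each dropped 1 of them. It was 469 without W18L02, 583 without W18L03, 570 without W18L04, 485 without W18L05, 520 without W5L5042 and 1620 without W5L5277, and 365 genes passed in every one of these 11 fits. The direction of the calls depended on the scaling. Deposited CPM summed to 1.18 to 1.38 M in old and 1.36 to 1.64 M in young libraries, so the scaling ran with age. With equal read totals in all libraries, a setting added after the data were seen, 1107 genes were higher and 206 lower, against 352 and 563 with the deposited scaling, and the median of all genes moved to 0.17. Changes are given on the deposited scale, and lists are set against the median of all genes. The calls of a list are to be read beside the shares over all genes, 2.83% higher and 4.53% lower. A list with only a few calls is not read as changed.

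The largest rise was that of Cidea, which encodes a protein of the lipid droplet surface that drives droplet fusion. Cidea was at 123, 47.8, 77.0, 40.1 and 59.4 CPM in the 5 old libraries, W18L01 to W18L05, and at 0 to 0.416 CPM with a median of 0 in the 6 young libraries. Every old library lay far above every young one. The log2 fold change was 5.89 with a standard error (SE) of 0.58 (limma, adjusted p = 1.06e-05), and 5.90 without the Xist libraries. Cidea overlaps the gene B430212C06Rik, and without strand the reads of both cannot be told apart. Other storage genes moved with it. Mogat1, an enzyme that makes diacylglycerol from monoacylglycerol, was at 5.40, 6.94, 10.05, 5.79 and 4.51 CPM in old liver and at 0.159 to 2.33 CPM (median 1.02) in young liver, again without overlap (log2 fold change 1.95, SE 0.30, limma, adjusted p = 0.000603). Fitm1, an endoplasmic reticulum protein needed for droplet formation, was at 99.6, 91.3, 93.8, 106 and 66.9 CPM in old liver and at 7.95 to 73.5 CPM (median 11.2) in young liver. One young library, W5L5005, reached the old range and the others stayed far below it (2.40, SE 0.46, limma, adjusted p = 0.00351). Fabp4, a fatty acid carrier of adipocytes and macrophages, fell from 13.8 ± 2.78 CPM (SD, n = 6) to 7.05 ± 1.44 (SD, n = 5), with a log2 fold change of -0.88.

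The storage changes were a matter of a few members. Of 30 tested genes for lipid droplets and triglyceride storage, 3 rose and 1 fell, and the median log2 fold change of the list was 0.08. Plin2, the main droplet coat protein of hepatocytes, was at 2532 ± 1399 CPM in old and 2114 ± 814 in young liver (limma, adjusted p = 0.776). Cidec, a relative of Cidea, was at 175 ± 170 and 156 ± 149 CPM (limma, adjusted p = 0.67). Of 6 tested adipocyte markers none rose and 1 fell, Fabp4, and 13 adipocyte markers summed to 1191 to 2127 CPM in old and 1044 to 2010 CPM in young libraries. In fatty acid synthesis 1 of 20 genes rose, against 2.83% of all genes. It was the carbohydrate-responsive transcription factor Mlxipl (0.82, SE 0.17, limma, adjusted p = 0.00604). In cholesterol synthesis 2 of 25 genes rose and 0 fell (median 0.30). The fits without 1 library gave 1 to 4 rises and 0 to 3 falls. In KO liver 0 rose and 1 fell (median -0.22). Hmgcs1, which makes the precursor of mevalonate, was at 269, 242, 286, 267 and 245 CPM in old WT liver. In young WT liver it was at 71.7 to 162 CPM (median 108), with no overlap (1.26, SE 0.25, limma, adjusted p = 0.0048). In fatty acid oxidation 1 of 42 genes rose, the fatty aldehyde dehydrogenase Aldh3a2 (1.04, SE 0.23).

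**Figure D1:**
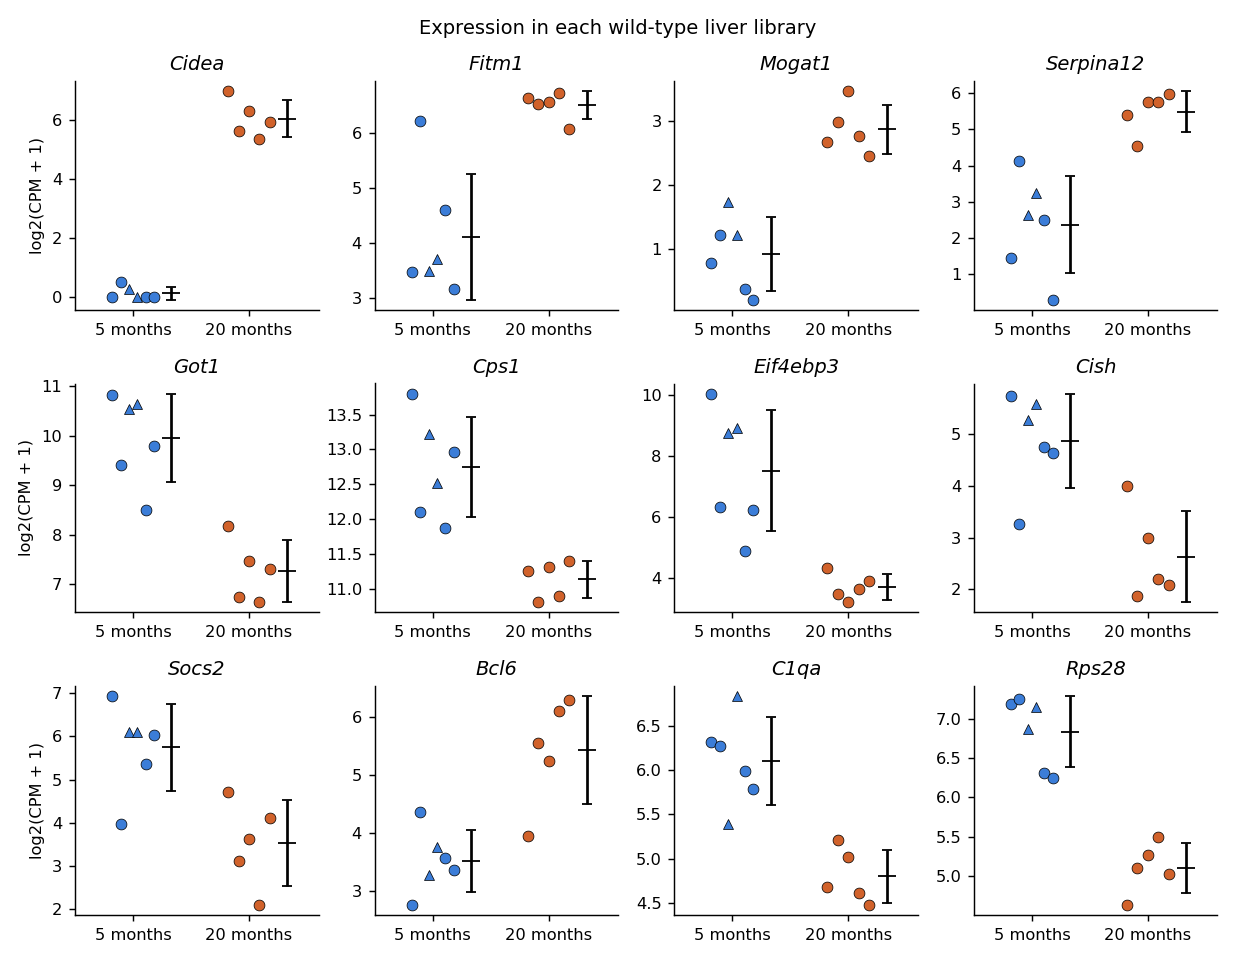
Expression of 12 genes in each WT liver library, as log2(CPM + 1), at 5 months (blue, 6 libraries) and 20 months (orange, 5 libraries); triangles mark the 2 young libraries with Xist reads, and bars give mean ± SD. Cidea is at or near 0 in all young libraries, while Fitm1, Bcl6, Cish and Socs2 each have a library within the range of the other age.

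Further genes with large rises and no overlap belonged to no single list. Serpina12, which encodes the secreted serpin vaspin, was at 41, 22.4, 52.8, 52.9 and 61.5 CPM in old and at 0.238 to 16.4 CPM (median 4.92) in young liver (3.11, SE 0.69, limma, adjusted p = 0.00909). Noct, a rhythmic phosphatase known from the circadian clock, was at 69.4, 72.8, 74.7, 184 and 82.9 CPM in old and at 9.70 to 37.8 CPM (median 16.2) in young liver. All old libraries exceeded all young ones in both genes, and W18L04 stood above the other old libraries for Noct (2.31, SE 0.46, limma, adjusted p = 0.00404). Sema5b, a semaphorin, rose by a log2 fold change of 2.57 (SE 0.31), Raet1d, a ligand of the immune receptor NKG2D, by 2.37 (SE 0.35), and the oxysterol-binding protein gene Osbpl3 by 2.11 (SE 0.41). The remaining genes of the 12 largest rises were Pnldc1, an exonuclease that trims small RNAs (2.83), Sult2a7, a sulfotransferase with close relatives (2.68), the unnamed gene Gm15401 (2.58), the orphan receptor Gprc5b (2.16), which overlaps Iqck, and the transcriptional regulator Tsc22d1 (2.08). Raet1d has near-identical relatives, among which reads may be split. The antisense gene Hectd2os was called higher (2.42), but it overlaps Hectd2, and since the use of strand in counting is not given in the sources used here, their reads cannot be told apart. The Hectd2os call also went in 6 of the 11 fits without 1 library, those without W18L02, W18L03, W18L04, W18L05, W5L5004 or W5L5042 (limma, adjusted p up to 0.0694), and without both Xist libraries (limma, adjusted p = 0.101). Of 28 clock genes tested, Noct and Hlf rose and Per1 fell. The Per1 call (-1.73) was absent in 7 of those 11 fits, without W18L01, W18L02, W18L03, W18L04, W5L5004, W5L5041 or W5L5042, with a limma adjusted p of up to 0.124 (W18L03), and without both Xist libraries (limma, adjusted p = 0.199). Time of day at collection is not given in the labels, and its part in these values was not tested.

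Enzymes of nitrogen and amino acid handling were lower in old liver. Of 50 tested genes of the urea cycle and amino acid metabolism, 16 fell and none rose, and the list median was -0.48 against -0.01 over all genes. Without the Xist libraries 10 fell and none rose, and with equal read totals 13 fell, at a median 0.44 below that of all genes. Got1, the cytosolic aspartate aminotransferase, was at 288, 106, 176, 98.7 and 157 CPM in old and at 362 to 1804 CPM (median 1184) in young liver. Every old library was below every young one, and W5L5277 was the lowest young library (-2.68, SE 0.55, limma, adjusted p = 0.00543). Cps1, the entry enzyme of the urea cycle, was at 2449, 1800, 2547, 1916 and 2708 CPM in old and at 3762 to 14224 CPM (median 6929) in young liver, also without overlap (-1.61, SE 0.38, limma, adjusted p = 0.0135). Ass1, which joins citrulline and aspartate, was at 2148, 2153, 2206, 1513 and 2147 CPM in old and at 4295 to 8895 CPM (median 5670) in young liver (-1.54, SE 0.28, limma, adjusted p = 0.0026).

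The next urea cycle enzymes were also lower. Asl, which splits argininosuccinate, fell by 1.65 on the log2 scale, though without W18L04 it missed the threshold (limma, adjusted p = 0.0557), and Arg1, which releases urea, fell from 3141 ± 1036 to 1560 ± 357 CPM. Otc, the mitochondrial enzyme between Cps1 and Ass1, was not called, with 444 ± 58.8 CPM in old and 366 ± 159 in young liver (limma, adjusted p = 0.416). Among amino acid breakdown enzymes, tyrosine aminotransferase (Tat) fell from 3213 ± 1402 to 984 ± 193 CPM, the next enzyme of tyrosine breakdown, Hpd, from 4761 ± 1169 to 1973 ± 272, and homogentisate oxidase (Hgd) from 1160 ± 147 to 659 ± 80.3 CPM. The serine dehydratase Sds fell from 460 ± 130 to 157 ± 37.2 CPM, and its relative Sdsl by 1.85 on the log2 scale. Gnmt and Ahcy, which handle the methyl donor S-adenosylmethionine and its product, fell from 2584 ± 1176 to 1068 ± 218 and from 6522 ± 1513 to 3317 ± 409 CPM. Without the Xist libraries 6 of the named members missed the threshold with their sign kept, namely Cps1 (-1.54, limma, adjusted p = 0.0678), Sdsl (-1.74, 0.0734), Sds (-1.38, 0.0884), Tat (-1.33, 0.111), Asl (-1.37, 0.118) and Arg1 (-0.82, 0.167). As a share of all reads, the 52 listed genes took 2.77 to 4.39% in old and 3.94 to 7.52% in young libraries, and W5L5277 was the young library within the old range.

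The periportal list, which shares members with the amino acid list, held falls as well. Of 25 periportal hepatocyte genes 8 fell and none rose (median -0.59), and 5 fell without the Xist libraries (median -0.47) or without W5L5005 and W5L5042 (median -0.72). Of the 8, Asl, Cps1, Ass1, Sds, Arg1 and Gls2 also stand in the amino acid list. Some general hepatocyte markers were lower too. Of 12 such markers 5 fell and none rose (median -0.44), each without overlap, and 2 fell without the Xist libraries (median -0.51). The 5 were Cps1, Tat, Fgb, the plasma protein gene Ahsg (-0.88) and Hnf4a, a transcription factor of hepatocyte identity, which fell from 1256 ± 220 to 820 ± 76.3 CPM (-0.60, SE 0.14, limma, adjusted p = 0.0139). Cps1 and Tat are also among the amino acid genes above, and Fgb and Ahsg among the secreted proteins below. Alb was called in 0 of the 11 fits without 1 library (limma, adjusted p = 0.668 to 0.953). The 12 markers summed to 135980 to 162426 CPM in old and 150116 to 264893 CPM in young libraries. The part of this difference in the amino acid, periportal and Kupffer results was not tested. Cdh1, the epithelial cadherin, was at 1.95, 4.54, 5.25, 5.48 and 11.2 CPM in old and at 18.2 to 67.1 CPM (median 44.5) in young liver, with no overlap (-2.75, SE 0.40, limma, adjusted p = 0.000338), and was also lower without the Xist libraries (-3.05). Etnppl, a phospholyase of phosphoethanolamine, was at 13.9, 82.6, 90.2, 74.3 and 83.8 CPM in old and at 93.4 to 453 CPM (median 302) in young liver. W18L01 was far below the other old libraries, and without it the Etnppl call just missed the threshold (-1.47, limma, adjusted p = 0.051). Of 26 pericentral genes 4 fell and 1 rose (median -0.10, and 0.05 without the Xist libraries). The falls were Por, the electron donor of cytochrome P450 enzymes (-1.73), the glutamate transporter Slc1a2 (-0.92), the bile acid enzyme Cyp27a1 (-0.86) and glutamine synthetase, Glul (-0.86). No test of the difference between the periportal and pericentral lists was made.

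Bile acid and detoxification lists held few calls. In bile acid synthesis 2 of 15 genes fell, Cyp27a1, which starts the alternative pathway, from 823 ± 140 to 448 ± 50.3 CPM, and the bile acid ligase Slc27a5 from 1549 ± 279 to 964 ± 67.7 CPM. Cyp7a1, the rate-limiting enzyme of the classical pathway, was at 83.9 ± 108 CPM in old and 84.9 ± 53 in young liver (limma, adjusted p = 0.669). Of 40 tested P450 pathway genes none rose and 2 fell, Por and Cyp3a13, where 4.53% of all genes fell. The falls numbered 1 without W18L01, W18L02, W18L03, W18L04, W18L05, W5L5004, W5L5041 or W5L5042 and 4 without W5L5277. Without the Xist libraries the list turned, with 2 rises and no fall at a median of 0.06 against -0.10 with all libraries. Without W5L5277 the bile acid synthesis list had 4 falls. Por was at 846, 374, 464, 347 and 412 CPM in old and at 912 to 2465 CPM (median 1706) in young liver, without overlap (limma, adjusted p = 0.0048), and just missed the threshold without the Xist libraries (-1.45, limma, adjusted p = 0.0506). 

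In growth hormone, insulin-like growth factor and insulin signalling, 3 of 28 genes rose and 3 fell, while 5 rose without W5L5277, 6 fell without W5L5005, and 1 rose without the Xist libraries. Cish and Socs2, feedback inhibitors that STAT5 induces, both fell, and Bcl6, a repressor that growth hormone is known to suppress through STAT5, rose. Cish was at 15.0, 2.66, 6.98, 3.57 and 3.25 CPM in old and at 8.58 to 52.7 CPM (median 31.8) in young liver. W18L01 was the highest old library and overlapped with W5L5005, the lowest young one (-2.25, SE 0.48, limma, adjusted p = 0.00671). Socs2 was at 25, 7.71, 11.4, 3.33 and 16.3 CPM in old and at 14.7 to 120 CPM (median 66.2) in young liver, with the overlap again between W18L01, W18L05 and W5L5005 (-2.21, SE 0.50, limma, adjusted p = 0.0107). Bcl6 was at 14.4, 46.1, 37.0, 67.4 and 76.7 CPM in old and at 5.85 to 19.6 CPM (median 10.1) in young liver, and W18L01 was the old library within the young range (1.91, SE 0.41, limma, adjusted p = 0.00745). These 3 calls held in each of the 11 fits without 1 library and without the Xist libraries (Cish -1.97, Socs2 -2.03, Bcl6 1.90). Igf1 itself, the main growth hormone target, was at 465 ± 79.2 CPM in old and 598 ± 107 in young liver, with overlap, and was not called (-0.36, SE 0.18, limma, adjusted p = 0.207).

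Because Cish and Bcl6 moved in opposite directions and both answer to STAT5, their promoters are shown, from RefSeq on build GRCm38.p6, as the 300 bases from 250 before to 50 after a transcription start, 5′ to 3′ on the gene's strand. Capitals mark TTCNNNGAA, the core motif bound by STAT5, which reads the same on both strands. The Cish window, chr9:107296409-107296708 on the plus strand, holds 2 matches, both in its last 50 bases, from the start on. The Bcl6 window, chr16:23981234-23981533 on the minus strand, is the one of its 2 annotated starts with more matches and holds 3. No window for Socs2 was used here.
Cish: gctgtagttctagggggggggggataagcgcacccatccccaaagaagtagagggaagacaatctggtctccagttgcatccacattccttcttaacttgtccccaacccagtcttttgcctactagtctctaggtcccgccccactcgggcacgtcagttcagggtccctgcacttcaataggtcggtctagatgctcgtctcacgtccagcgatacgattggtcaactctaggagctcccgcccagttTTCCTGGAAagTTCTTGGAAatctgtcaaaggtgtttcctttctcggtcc
Bcl6: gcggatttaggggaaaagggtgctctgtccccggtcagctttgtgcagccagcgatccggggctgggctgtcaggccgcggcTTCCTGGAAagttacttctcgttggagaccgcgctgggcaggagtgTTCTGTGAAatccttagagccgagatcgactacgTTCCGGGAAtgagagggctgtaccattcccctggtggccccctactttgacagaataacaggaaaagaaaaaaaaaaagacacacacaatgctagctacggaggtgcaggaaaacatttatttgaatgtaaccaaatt
Of all 32851 promoter windows, 8.3% hold at least 1 such match and 0.457% at least 2. A match describes letters in the window and does not show that a factor binds there.

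Sex-biased genes, which growth hormone pulses also set, depended on the libraries compared. Of 31 tested male-biased genes 1 rose, Bcl6, and the median was 0.43. Without the 2 Xist libraries 5 fell and 1 rose, and the median was -0.86. With edgeR on all 11 libraries the median was -0.08. Of 22 female-biased genes 1 rose (median -0.25), whereas without those libraries 5 rose and the median was 0.29. No female-biased gene rose without W18L03, W18L05, W5L5004 or W5L5042 alone. Mup20, a male-biased urinary pheromone carrier with near-identical relatives, was at 230 and 167 CPM in W5L5041 and W5L5042 and at 2443 to 12275 CPM in the old libraries, and over all 11 libraries it was not called (limma, adjusted p = 0.64). In a fit of all liver libraries with a covariate for those with Xist, 10 male-biased genes fell and 1 rose (median -1.07). There 7 female-biased genes rose and 0 fell (median 0.10). Without this covariate the full set of libraries gives no direction for either list.

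Transcripts for the machinery of translation were lower in old liver. Of 81 cytosolic ribosomal protein genes, 44 fell and none rose, at a median of -0.50, and 80 of the 81 estimates were below 0. Of 67 ribosome biogenesis and nucleolar genes 24 fell and none rose (median -0.38), and of 23 genes in the cytosolic aminoacyl-tRNA synthetase list 5 fell (median -0.28). These counts use a spread taken from the WT and KO livers together. In a fit of the 11 WT libraries alone, at the same medians, 23 ribosomal protein, 5 biogenesis and 1 synthetase genes fell. No synthetase gene fell without the Xist libraries (median -0.23) or with equal read totals, and 1 fell without W5L5005 and W5L5042. The synthetase count was 1 to 3 without any 1 library except W18L01 (5), W5L5299 (6) and W5L5277 (9), with 1 without W18L03, W18L04, W18L05 or W5L5042. Rps28, a small subunit protein, was at 24, 33.4, 37.5, 44.2 and 31.7 CPM in old and at 75.0 to 151 CPM (median 128) in young liver, with no overlap (-1.72, SE 0.21, limma, adjusted p = 8.92e-05). Rps29 fell by 1.83, Rpl36 by 1.37 and Rpl38 by 1.27 on the log2 scale, each without overlap. Ribosomal protein genes have many processed pseudogenes, among which the authors' counting could split reads.

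Among biogenesis factors, Rrs1, needed for the large subunit, was at 27.2, 20.6, 21.5, 14.8 and 20.9 CPM in old and at 30.1 to 51.8 CPM (median 39.9) in young liver (-0.92, SE 0.17, limma, adjusted p = 0.0021). Ddx21, a nucleolar RNA helicase, was at 54.6, 44.0, 45.4, 38.9 and 46.4 CPM against 63.7 to 103 CPM (median 80.8), also without overlap (-0.81, SE 0.13, limma, adjusted p = 0.000603). Myc, a known activator of such genes, was at 7.61, 5.36, 5.47, 5.42 and 5.47 CPM in old and at 5.46 to 33.7 CPM (median 21.2) in young liver. Its lowest young library lay within the old range (-1.40, SE 0.32, limma, adjusted p = 0.0106), and Myc was not called without the Xist libraries (-1.25, limma, adjusted p = 0.076). The E-box CACGTG, the core motif that MYC binds and that reads the same on both strands, was in a promoter window of 11 of the 59 listed biogenesis genes with a window (18.6%), of 6 of the 20 called ones, and of 11.9% of 9946 tested genes with a window. These shares are descriptions, with no test, and the 20 genes were chosen by their calls in these data. In KO liver 57 of the 67 biogenesis estimates were below 0 (median -0.17), with 2 called lower and 1 higher. Of the 81 ribosomal protein estimates 78 were below 0 there (median -0.28), with 6 called lower. Over all genes 53.6% were below 0 in KO liver. The part of Myc in these falls was not tested.

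The falls in translation genes moved with transcript length and with particular libraries. Over all genes with an annotated length, the median log2 fold change ran from -0.20 for median transcript lengths of at most 500 bases (162 genes) through -0.11, -0.07 and 0.01 to 0.10 above 4000 bases (2091 genes). The ribosomal protein genes have a median length of 681 bases against 2179 over all genes, and within that list the shortest 14 had a median of -0.89 and the 53 of the next class one of -0.48. W5L5042 and W5L5005 stood apart from the other young libraries, with medians of 0.32 and 0.25 above the gene means for the shortest genes, where the remaining 9 libraries lay between -0.19 and 0.07. Without these 2 libraries, a setting added after the data were seen, 23 ribosomal protein genes fell, at a median of -0.29, and 7 biogenesis genes (median -0.31). Without the Xist libraries 22 and 3 fell, at medians of -0.35 and -0.28, and with equal read totals 24 and 6 fell, at medians 0.46 and 0.34 below that of all genes. The ribosomal count was 28 without W18L05, and 31 to 64 in the other 10 fits without 1 library. The biogenesis count was 10 without W18L02, W18L05 or W5L5042, 12 without W5L5041, 13 without W18L03, W18L04 or W5L5004, and 34 without W5L5277. The part of transcript length in these falls was not tested. The biogenesis genes, with a median length of 1984 bases, had medians of -0.46 to -0.30 in each length class of 9 or more members.

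**Figure D2:**
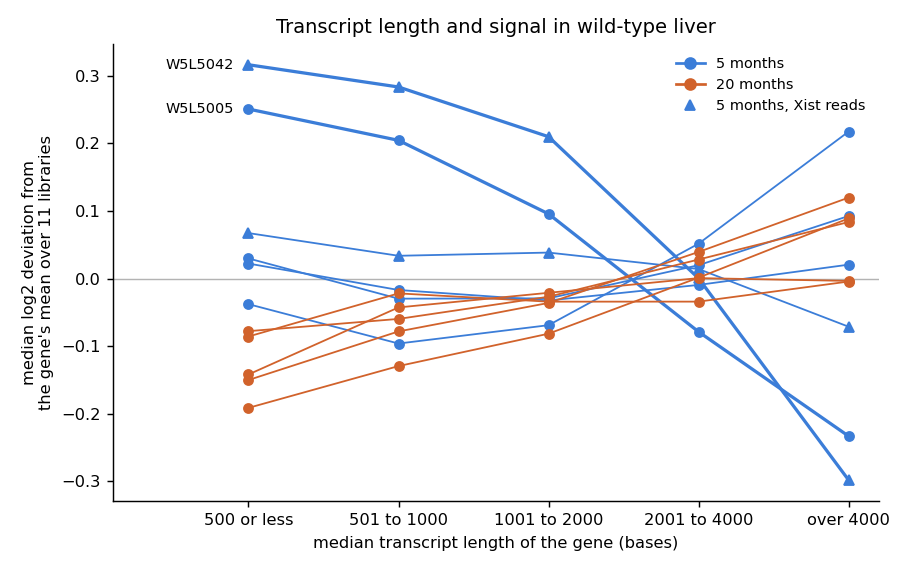
Median deviation of each WT liver library from the gene means, on the log2 scale, by median transcript length of the gene in bases; blue lines are young and orange lines old libraries, and triangles mark Xist libraries. W5L5042 and W5L5005 are highest for short and lowest for long transcripts, while the old libraries are below 0 for the shortest class.

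Nuclear genes for mitochondrial proteins were lower in part. Of 75 nuclear genes for subunits of oxidative phosphorylation 18 fell and none rose (median -0.33), and of 77 mitochondrial ribosomal proteins 8 fell (median -0.22). The mitochondrial ribosomal count was 3 without W18L04, 4 without W18L02, W18L03, W18L05 or W5L5042, 5 without W5L5005 or W5L5041, and 16 without W5L5277 or W5L5299. It was 2 without the Xist libraries (median -0.12) and 2 without W5L5005 and W5L5042 together, where the median was -0.06, or 0.04 below that of all genes. With equal read totals 2 fell and 1 rose. Atp5k, a small ATP synthase subunit, was at 17.0, 18.3, 20.4, 23.4 and 16.3 CPM in old and at 42.2 to 144 CPM (median 61.6) in young liver, with the highest value in W5L5005 (-1.72, SE 0.25, limma, adjusted p = 0.000356). Ndufa3 and Ndufa1, small complex I subunits, fell by 1.22 and 1.12 on the log2 scale. The oxidative phosphorylation genes have a median transcript length of 655 bases. Without W5L5005 and W5L5042 together 9 oxidative phosphorylation genes fell and the median was -0.15, and without the Xist libraries 10 fell at a median of -0.25. The count was 11 without W18L05, 12 without W18L03, W5L5005 or W5L5041, and 31 without W5L5299.

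Acute phase and metal-binding genes were lower in old liver, with wide spread among the young. Of 39 acute phase genes 8 fell and none rose (median -0.60), and 1 fell without the Xist libraries (median -0.56). In the fit of the 11 WT libraries alone 2 fell. Mt1, a metallothionein that binds zinc and is induced by metals, glucocorticoids and inflammation, was at 179, 64.4, 74.4, 203 and 30.8 CPM in old and at 105 to 2535 CPM (median 1353) in young liver. Mt2 was at 63.4, 18.2, 13.6, 73.2 and 11.2 CPM in old and at 40.7 to 1320 CPM (median 660) in young liver. In both genes W5L5277, the lowest young library, lay within the old range and the other young libraries above it (Mt1 -3.05, SE 0.84, limma, adjusted p = 0.0291; Mt2 -3.49, SE 0.99, limma, adjusted p = 0.0343). Both calls were absent without W18L02, W18L03, W18L05, W5L5004, W5L5041 or W5L5042, with limma adjusted p of up to 0.0907 and 0.0936, and without both Xist libraries (limma, adjusted p = 0.183 and 0.215). The metallothioneins had the largest falls of this list and are metal-binding proteins, not plasma proteins. Of the liver's secreted proteins, the iron hormone hepcidin (Hamp) was at 1133, 723, 991, 546 and 1182 CPM in old and at 1913 to 2421 CPM (median 2077) in young liver, without overlap (-1.26, SE 0.34, limma, adjusted p = 0.0256). Hamp missed the threshold without W18L02, W18L04 or W5L5042 (limma, adjusted p up to 0.0753), and without both Xist libraries (limma, adjusted p = 0.0966). Fibrinogen beta (Fgb) fell by 0.80 and fetuin A (Ahsg) by 0.88 on the log2 scale. The Fgb call was lost without W18L03 (limma, adjusted p = 0.0548) and without the Xist libraries (limma, adjusted p = 0.0528). The acute phase count was 1 without W18L02 or W5L5042, and 2 without W18L03, W18L05, W5L5004 or W5L5041.

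Since both metallothionein genes moved together, their promoters are shown in the same form, on build GRCm38.p6. Capitals mark the core of the metal response element, TGCACNC or TGCGCNC, on either strand. Mt1 (chr8:94178839-94179138, plus strand) holds 3 matches and Mt2 (chr8:94172368-94172667, plus strand) holds 4, of which 2 are on the other strand.
Mt1: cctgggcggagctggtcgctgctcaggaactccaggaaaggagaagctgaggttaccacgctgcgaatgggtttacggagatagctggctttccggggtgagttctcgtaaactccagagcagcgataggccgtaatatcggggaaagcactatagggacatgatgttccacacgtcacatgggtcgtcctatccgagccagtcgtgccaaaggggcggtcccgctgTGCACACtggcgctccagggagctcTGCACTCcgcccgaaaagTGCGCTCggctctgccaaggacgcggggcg
Mt2: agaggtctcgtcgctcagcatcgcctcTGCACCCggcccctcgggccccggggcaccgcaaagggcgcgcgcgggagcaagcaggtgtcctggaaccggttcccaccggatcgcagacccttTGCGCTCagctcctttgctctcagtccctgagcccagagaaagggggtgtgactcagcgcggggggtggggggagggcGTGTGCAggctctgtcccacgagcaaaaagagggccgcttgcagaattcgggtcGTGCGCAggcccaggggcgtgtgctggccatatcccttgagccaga
Of all windows 25.7% hold at least 1 match and 1.97% at least 3.

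Stress and growth control genes gave mixed results. Eif4ebp3, a repressor of the cap-binding factor eIF4E, had the largest fall among named genes whose groups did not overlap. It was at 19.1, 9.96, 8.21, 11.3 and 14 CPM in old and at 28.5 to 1047 CPM (median 254) in young liver (-3.82, SE 0.87, limma, adjusted p = 0.0113), and it missed the threshold without the Xist libraries (-3.16, limma, adjusted p = 0.068). The other named large falls without overlap included Nnmt, which methylates nicotinamide (-1.91), Acmsd, an enzyme of tryptophan breakdown (-2.58), the tubulin gene Tuba8 (-2.21), the unnamed gene Gm33543 (-2.42) and Rps27rt, a copy of a ribosomal protein gene that lies in Osbpl10 (-2.79). The relative of Eif4ebp3, Eif4ebp1, fell from 78.1 ± 16.3 to 37.4 ± 6.13 CPM (limma, adjusted p = 0.00123). Among cell cycle inhibitors and p53 targets 3 of 34 rose and none fell, with 1 rise without W18L01 or W5L5004 and 2 falls without W5L5005 or W5L5277. Over all genes 2.83% rose and 4.53% fell. So few calls are not read as a trait of this list or of the cytokine list below. The p53 inhibitor Mdm4 was at 51.4, 44.0, 54.1, 58.6 and 54.5 CPM in old and 25.7 to 36.0 CPM (median 29.8) in young liver (0.77, SE 0.12, limma, adjusted p = 0.000565). Cdkn1a, which encodes the inhibitor p21, ranged from 3.63 to 168 CPM in old and from 7.61 to 352 CPM in young liver and was not called (limma, adjusted p = 0.637). Of 30 tested cytokine and secretory senescence genes 2 rose, Gdf15 and Cxcl14, and 1 fell, Cxcl13, and 1 rose without W18L02, W18L03, W18L04, W18L05, W5L5004, W5L5005, W5L5041 or W5L5042. Neither Gdf15 nor Cxcl13 was called without the Xist libraries (limma, adjusted p = 0.0934 and 0.0884).

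**Figure D3:**
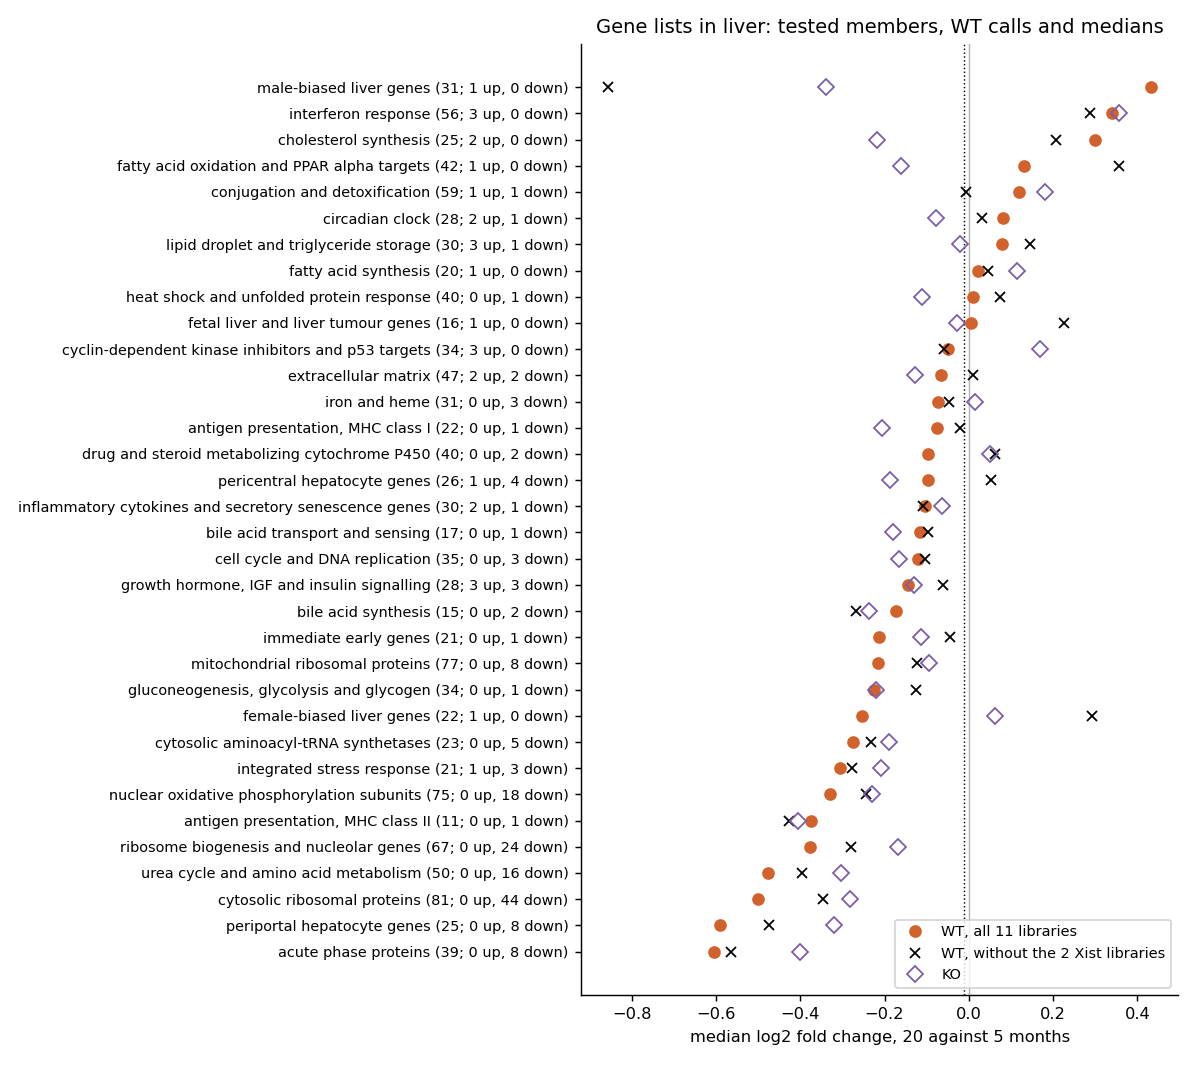
Median log2 fold change, 20 against 5 months, of the tested members of each gene list in liver, for WT (orange), WT without the 2 Xist libraries (crosses) and KO (purple diamonds); labels give the members tested and the WT calls, and the dotted line is the WT median of all genes. Acute phase, periportal, ribosomal protein and amino acid lists lie lowest in WT, and the male-biased list moves from 0.43 to -0.86 without the Xist libraries.

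Markers of resident macrophages were lower in old liver. Of 14 Kupffer cell markers, which mark the resident macrophages of the liver, 6 fell and none rose (median -0.80), and 7 fell without the Xist libraries. C1qa, a chain of complement C1q, was at 24.6, 36.1, 31.3, 23.4 and 21.4 CPM in old and at 40.9 to 113 CPM (median 69.3) in young liver, without overlap (-1.30, SE 0.23, limma, adjusted p = 0.00162). Clec4f, a lectin restricted to Kupffer cells, was at 70.0, 76.9, 27.2, 58.1 and 50.2 CPM in old and at 69.0 to 187 CPM (median 132) in young liver, with W5L5041 the young library inside the old range (-1.19, SE 0.26, limma, adjusted p = 0.00707). The summed level of 15 Kupffer markers was 473 to 777 CPM in old and 548 to 1220 CPM in young libraries. The count was 9 without W5L5041 and 2 without both W5L5005 and W5L5042. In bulk liver, fewer cells of a type and less RNA per cell cannot be told apart. In the interferon response list 3 of 56 genes rose and none fell, at a median of 0.34, and 46 of the 56 estimates were above 0. Samd9l, an interferon-induced antiviral gene, was at 16.1, 15.4, 21.3, 16 and 19 CPM in old and at 5.85 to 11.3 CPM (median 8.22) in young liver (1.03, SE 0.24, limma, adjusted p = 0.0139). The interferon count was 1 without W18L03, W18L04, W18L05, W5L5004, W5L5005 or W5L5041, and 5 without W5L5277. It was 1 without the Xist libraries (median 0.29) and 0 without W5L5005 and W5L5042 (median 0.30).

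Markers of some other immune and stromal cell types are given by list. The 18 B cell markers summed to 15.6 to 32.7 CPM in old and 5.92 to 25.1 CPM in young libraries. In the T and NK cell list 4 of 32 genes were high enough to test, 1 of which fell, and Trac, Trbc1 and Trbc2 are listed at 0 in all 11 libraries. The 32 genes summed to 22.4 to 38.9 CPM in old and 35.4 to 66.8 CPM in young libraries. In the plasma cell list 9 immunoglobulin constant genes are likewise at 0 in all libraries, so plasma cells could not be judged from them. Of 20 sinusoidal endothelial markers 0 passed by limma and 2 were lower by DESeq2, while by limma 3 fell without W5L5277 and 2 without W5L5299. Of their estimates 18 were below 0 (median -0.31), and in KO liver 3 fell (median -0.52). They summed to 415 to 574 CPM in old and 572 to 796 CPM in young libraries, so lower values were not particular to the Kupffer markers. In the stellate cell and fibroblast list 1 of 19 rose, Lrat, which makes the retinol esters these cells store (0.88, SE 0.19), and 3 fell, with 1 fall without W18L02, W18L04, W18L05, W5L5041 or W5L5042 and none without both Xist libraries.

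Ageing was measured a second time in the livers of KO mice, 5 old and 6 young. The KO fold changes share no library with the WT fold changes. The spread behind the calls was taken from the WT and KO livers together, however. Calls made in both genotypes are therefore not from separate data. The KO livers carry the same imbalance as the WT livers. Of the 6 young KO libraries 2, K5L5116 and K5L5118, held Xist reads (4272 and 5832) and no Y-linked reads. All 5 old KO libraries held Y-linked reads. In KO liver 205 genes were higher (1.65%) and 165 lower (1.33%). Of the 352 genes that rose in WT, 346 had an estimate above 0 in KO and 106 were called higher there, and none was called lower. Of the 563 that fell in WT, 552 were below 0 in KO and 78 were called lower, and none was called higher. Over all 12422 genes, 73.6% had the same sign in both genotypes, and in KO 46.4% were above 0 and 53.6% below 0. The 184 genes called in both with the same direction are 20.1% of the WT calls and 49.7% of the KO calls. The median change of the WT risers was 0.79 in WT and 0.50 in KO, and that of the fallers -0.65 and -0.37, where the WT values are those that chose the genes. With the Xist libraries left out of both genotypes, 176 of the 183 genes higher in WT were above 0 in KO, with 84 called, and 221 of the 226 lower ones were below 0, with 84 called. Over all genes 72.3% then had the same sign. The KO count was unstable, at 99 without K18L10, 132 without K18L09, 137 without K18L06, 149 without K5L4285, 183 without K5L4284, 186 without K18L07, 222 without K5L5116, 226 without K5L5248 and 719 without K5L5218.

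Cidea, Fitm1, Mogat1, Noct and Cdh1 were called in both genotypes. In KO liver Cidea was at 51.3 ± 67.7 CPM (SD, n = 5) in old and 0.0687 ± 0.0632 (SD, n = 6) in young mice (4.42, SE 0.58), and Cdh1 at 5.58 ± 3 and 45.3 ± 21.4 CPM (-2.83, SE 0.40). The ageing difference was tested for a difference between the genotypes, and 0 of 12422 genes passed by limma and 0 by edgeR, with 480 and 533 at an unadjusted p under 0.05. Cish fell in WT but had an estimate of -0.23 in KO (SE 0.48, limma, adjusted p = 0.825). The WT minus KO difference for Cish was -2.01 with an SE of 0.68, at a limma adjusted p of 0.992. Cnbd2, a gene with cyclic nucleotide-binding domains, fell by 2.20 in WT and was at -0.04 in KO (difference -2.16, SE 0.64, limma, adjusted p = 0.992). Neither difference between genotypes passed the test.

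**Figure D4:**
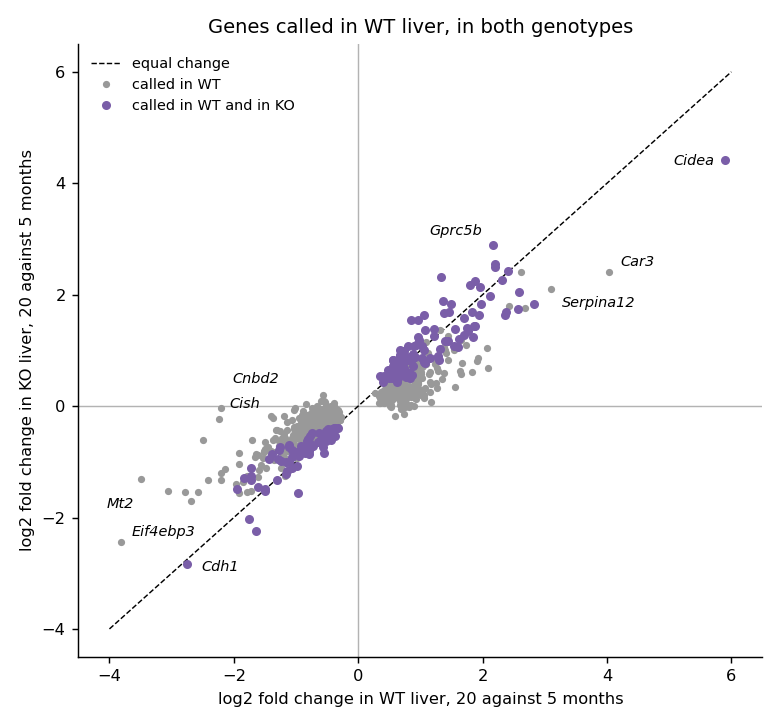
Log2 fold change, 20 against 5 months, of the 915 genes called in WT liver, in WT (horizontal) and KO (vertical); purple points are also called in KO and the dashed line marks equal change. Nearly all points lie where both changes share a sign, 552 of 563 fallers and 346 of 352 risers, against 73.6% of all genes tested.

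Liver ageing was then set against ageing of adipose tissue and muscle of WT mice, 11 libraries each, over 10813 genes expressed in all 3 tissues. The ageing difference of 421 genes (3.89%) differed between liver and adipose tissue and that of 287 (2.65%) between liver and muscle. This model gives each gene a single spread shared by the 3 tissues. Its SEs and p-values thus do not allow for a larger spread in liver, and can be too small for genes that vary most there. For Cidea and Got1 the SE of the difference is below that of the liver change in the liver fit. The muscle count was 182 without W18L03, 186 without W18L04, 173 without W18L05 and 470 without W5L5277, and 185 without the Xist libraries. Of the 735 liver calls among these genes, 86 differed from adipose tissue and 104 from muscle, and 35 differed from both in the same direction.

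Cidea differed from both tissues. It was at 3.33 ± 1.04 CPM in old and 2.77 ± 2.42 in young adipose tissue, and at 1.08 ± 0.504 and 3.01 ± 1.82 CPM in muscle. The rise in liver exceeded the change in adipose tissue by 5.49 (SE 0.46, limma, adjusted p = 2.68e-09) and that in muscle by 6.76 (SE 0.46, limma, adjusted p = 9.58e-12). Got1 was at 13.0 ± 0.725 CPM in old and 12.2 ± 1.63 in young adipose tissue, and at 677 ± 93.0 and 1147 ± 387 CPM in muscle. Its fall in liver was larger by 2.78 than the change in adipose tissue (SE 0.42, limma, adjusted p = 0.000182) and larger by 1.99 than that in muscle (SE 0.42, limma, adjusted p = 0.0102). Ass1 went the opposite way in adipose tissue, from 6.39 ± 2.62 CPM in young to 36.8 ± 8.48 in old mice, a difference from liver of -3.93 (SE 0.56, limma, adjusted p = 7.61e-05). Enho, which encodes the secreted peptide adropin, fell in liver (-1.92), overlaps Dnaic1 and had an estimate of 0.66 in adipose tissue and 0.04 in muscle, and both differences passed.

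Muscle-linked and interferon-linked genes made further contrasts. Tpm2, a muscle tropomyosin, was at 7.93, 13.6, 10.4, 18.2 and 9.91 CPM in old and 1.35 to 5.56 CPM (median 2.46) in young liver, without overlap, against a fall in adipose tissue from 52.9 ± 33.1 to 11.4 ± 2.72 CPM (difference 3.65, SE 0.43, limma, adjusted p = 5.23e-06). Gbp6, an interferon-induced guanylate-binding protein, rose in liver (1.45) and fell in muscle (-1.45), and the difference passed (2.90, SE 0.61, limma, adjusted p = 0.0102). The Gbp6 call in liver alone held in 3 of the 11 fits without 1 library, those without W18L01, W5L5277 or W5L5299, and was lost without both Xist libraries (limma, adjusted p = 0.161). Ribosomal protein genes had medians of -0.50 in liver, -0.70 in adipose tissue and -0.04 in muscle, and 1 of 81 differed between liver and muscle and 0 between liver and adipose tissue.

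**Figure D5:**
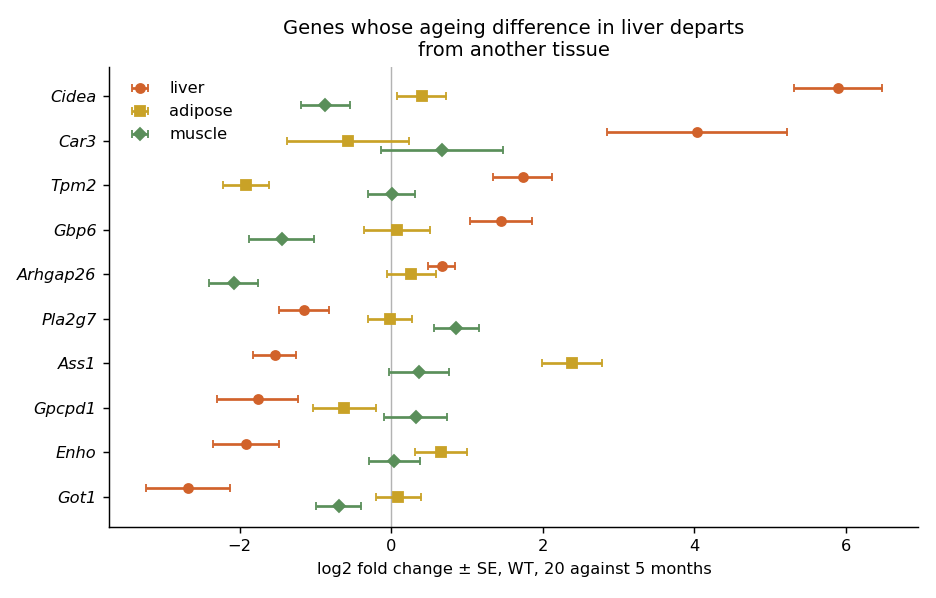
Log2 fold change ± SE, 20 against 5 months, in WT liver, adipose tissue and muscle for 10 genes with large called differences between liver and another tissue. Cidea is at 5.89 in liver and near or below 0.41 elsewhere, Got1 and Enho are lowest in liver, and Ass1 lies below 0 in liver and above 2 in adipose tissue.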

How the data were processed

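Total RNA was enriched for messenger RNA on oligo-dT beads and sequenced as strand-marked libraries, per the labels' protocols. The authors deposited 1 table of read signal per gene, called CPM in its header and named there after CLC gene expression tables. Genome builds GRCm38.p6 and mm10 are named in the submitters' processing notes, while aligner settings, annotation and use of strand are not given in the sources used here. The deposited signal is whole reads multiplied by 1 factor per library: 100% of values came out whole within 0.1 of a read, and column sums in liver ranged from 1.18 to 1.64 M. Within WT liver they were 1.18 to 1.38 M in old and 1.36 to 1.64 M in young libraries. No pair of libraries within a group agreed within sampling noise (lowest chi-square per degree of freedom 26.4).

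Genes above 1 CPM in at least 5 of the 11 WT liver libraries were tested on log2(CPM + 1) with limma 3.58.1 (R 4.3.3) over all 22 liver libraries with 1 mean per group, an intensity trend and Benjamini-Hochberg adjustment. Log2(value + 1) understates changes of low genes. The tissue comparison used 1 model over the WT libraries of 3 tissues. On counts simulated for the 22 liver libraries and 12422 genes, with changes set in old WT liver, limma recovered 80% of changes of log2 size 1 and 97% of size 2. It made 10 false calls. Changes were set only in genes with higher counts, and no shift by sex or transcript length was simulated. The recovery thus does not cover low genes or such shifts. Recovered reads were also tested with edgeR 4.0.16 and DESeq2 1.42.0. Genes were matched by ID to RefSeq symbols (35336 of 36332), and transcript lengths came from GENCODE.

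Fits without the Xist libraries left out 2 WT and 2 KO libraries. The text draws its genes from a fixed set, the 12 largest rises and the 12 largest falls without overlap (mean of 5 CPM or more), up to 4 called members per list, 6 by name, and the 3 largest differences in each direction per tissue. Others in the text are list members singled out after their values were seen. Members and lists were chosen with earlier results of these data known. The labels give no collection batch or animal number beyond the library code, and p-values measure the spread between these samples. Some list members are not reported here.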

Additional observations from a re-analysis of the deposited data

Results flagged for a closer look

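Single libraries stood apart from their group in 16 of 258 groups of values checked over the named genes (Dixon's test at the 95% level), or 6.2%, where chance flags about 1 in 20. In old liver, W18L01 stood apart for Etnppl (13.9 CPM), Irs1 (28.4), Myc (7.61) and Cdk4 (45.9). W18L04 did so for Sdsl (12.4 CPM), Noct (184), Gar1 (3.08), Cdkn1a (3.63), Ass1 (1513) and Pla2g7 (3.08). W18L03 stood apart for Tuba8 (10.4 CPM) and Fgb (2741), and W18L02 for Slc1a2 (102). In young liver, W5L5041 stood apart for Ctss (26.3 CPM), and W5L5005 for Atp5k (144) and Bpgm (34.4).

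The ageing difference was tested between tissues and differed for 421 genes between liver and adipose tissue and for 287 between liver and muscle. The named differences, liver minus adipose tissue on the log2 scale, were Cidea 5.49, Car3 4.61, Tpm2 3.65, Enho -2.58, Got1 -2.78 and Ass1 -3.93. Liver minus muscle, they were Cidea 6.76, Gbp6 2.90, Arhgap26 2.75, Got1 -1.99, Pla2g7 -2.01 and Gpcpd1 -2.09.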

How the results depend on the processing

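In WT liver ageing, 915 genes passed in the main fit, and 409 without the Xist libraries, 420 in a fit of the 11 WT libraries alone, 420 without W5L5005 and W5L5042, 1420 with DESeq2, and 469 to 1620 in the fits without 1 library. The other settings, which include edgeR (923), TMM factors (875), other pseudocounts and other filters, gave counts within 1.5 times of 915. No called named gene changed sign under any setting, and 71 of 118 were called in every fit without 1 library. In the fit of the 11 WT libraries alone, 42 of the 118 lost the call. There 10 oxidative phosphorylation and 3 mitochondrial ribosomal genes fell, and 16 genes of the amino acid list and 5 Kupffer markers did. Without W5L5005 and W5L5042, a setting added after the data were seen, calls lost included Asl, Tat, Sdsl, Enho, Hamp, Mt1, Mt2, Gbp6, Samd9l and Clec4f, at limma adjusted p of 0.0521 (Enho) to 0.133 (Gbp6). KO liver ageing gave 99 to 719 genes without 1 library, against 370. The difference between genotypes gave 0 genes throughout. Liver against adipose ageing gave 290 to 561 genes without 1 library, and liver against muscle 173 to 470 without 1 library and 185 without the Xist libraries. With a replicate block on the animal numbers the counts were 551 and 378. The main tissue comparison did not pair libraries by these numbers, so its counts do not allow for animals shared between tissues. Of 10 pairs of the same number, 9 correlated above 0.1 and 1 was at -0.126, with the highest at 0.419. Pairs of different numbers ran from -0.332 to 0.365, so the values of both kinds of pair overlap. The adipose libraries W5F5041 and W5F5042 held Xist reads and no Y-linked reads. So did the muscle libraries W5S5041 and W5S5042, as in W5L5041 and W5L5042. These Xist and Y-linked reads go with the same number marking the same animal, which the labels do not state. At this depth and group size, changes of log2 size 1 were missed in part on simulated data, even in genes with higher counts. The cause of these shifts was not tested.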

Other observations

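Genes outside the comparisons above whose liver change departed from both other tissues included Rasgef1b, a guanine nucleotide exchange factor gene (liver -1.65, difference from adipose tissue -1.68 and from muscle -1.50), and Slc16a10, an aromatic amino acid transporter (liver -1.07, differences -1.44 and -1.45). Serpinb1a, an inhibitor of neutrophil proteases, was higher in old liver (1.70, differences 2.05 and 1.86). These genes were chosen after their values were seen.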
